A study of Mus musculus with 4 samples.

Results

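A set of 9 genes of the erythroid and megakaryocyte lineages was followed in haematopoietic stem cells (HSCs) of mouse bone marrow, 4 of them erythroid (Gata1, Klf1, Epor, Car1) and 5 megakaryocytic (Pf4, Itga2b, F2r, Mmrn1, Vwf). They were taken by gene symbol from probe sets with 1 symbol, and all 9 were found, out of 19938 genes measured; each had 1 probe set. The cells were sorted as Lin-, c-Kit+ and Sca-1+ from C57BL/6 mice aged 8 weeks, a gate that also takes in multipotent progenitors. Group WT had the WT genotype and group Hif1a-/- was labelled as lacking Hif1a, which encodes the oxygen-regulated subunit of the factor HIF-1; each group had 2 arrays, numbered 1 and 2 as biological replicates, and no treatment is named. The labels do not say how Hif1a was deleted, in which cells, or how many mice gave each sample, so the p-values below measure the spread between these arrays.

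Red cells and platelets share a progenitor, and both lineages depend on GATA1, a zinc-finger transcription factor that works with partners such as FOG1 and TAL1. KLF1 then drives the erythroid programme with haemoglobin, haem and membrane genes, and erythropoietin acting through its receptor keeps erythroid progenitors alive. Megakaryocytes build up platelet receptors and granule proteins, and some stem cells already carry platelet-lineage transcripts such as Vwf and Itga2b, which is called megakaryocyte priming. Gata1 is also used by mast cells, basophils and eosinophils, and Vwf, Mmrn1 and F2r are also transcribed in endothelium.

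The values are log2 signals, on which a difference of 1 is a doubling. The signal of one gene cannot be set against that of another, because probes differ in brightness. Hif1a itself had log2 signals of 10.37 and 10.99 on WT arrays 1 and 2, respectively, and 10.58 and 10.64 on their Hif1a-/- counterparts (difference −0.08, SE 0.24), which does not check the genotype labels because a probe set can lie outside a deleted part. Arrays of the same number resembled each other more (r = 0.995 and 0.983 across 19938 genes, which are not independent) than arrays of the same genotype (r = 0.966 and 0.962). Kit, the c-Kit gene of the sort gate, was at 12.57 and 12.37 on the WT and Hif1a-/- arrays numbered 1 and fell by 1.06 in number 2 (SE 0.13, limma adjusted p = 0.0121), to 11.51 and 11.32. There, 19 of 22 mast cell, basophil and eosinophil markers were higher and 20 of 22 stem cell markers were lower. Also higher were 18 of 19 neutrophil, 18 of 18 monocyte, macrophage and dendritic, and 13 of 16 T and NK cell markers, whereas 11 of 16 B cell markers were lower. Of all 19938 genes, 8886 were higher and 11052 lower. The labels do not say what the numbers stand for. The erythroid and megakaryocyte genes are therefore described by number and by genotype.

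The stretches of 250 bases before the start site are shown for 5 of the 9 genes, the erythroid genes other than Car1 and the 2 megakaryocyte genes that lay lower on both arrays numbered 2. They are RefSeq sequences of build GRCm38.p6, given 5′ to 3′ along the gene: Gata1 at chrX:7967911-7968160 (minus strand), Klf1 at chr8:84901732-84901981 (plus strand), Epor at chr9:21963577-21963826 (minus strand), Itga2b at chr11:102469884-102470133 (minus strand) and Mmrn1 at chr6:60944067-60944316 (plus strand). Capitals mark any match, on either strand, to AGATAA or TGATAA (recognised by GATA factors), CCNCNCCC (KLF factors) or AGGAAG (ETS factors).
Gata1: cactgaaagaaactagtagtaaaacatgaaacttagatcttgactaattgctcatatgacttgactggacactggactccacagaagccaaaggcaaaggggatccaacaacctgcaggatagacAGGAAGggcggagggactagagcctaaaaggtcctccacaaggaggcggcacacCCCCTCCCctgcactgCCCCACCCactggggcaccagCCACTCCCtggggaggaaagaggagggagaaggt
Klf1: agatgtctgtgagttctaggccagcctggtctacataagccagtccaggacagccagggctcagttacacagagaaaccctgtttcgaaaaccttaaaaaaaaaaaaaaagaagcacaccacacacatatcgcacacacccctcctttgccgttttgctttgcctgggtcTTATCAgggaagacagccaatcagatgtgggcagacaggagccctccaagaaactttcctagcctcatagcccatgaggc
Epor: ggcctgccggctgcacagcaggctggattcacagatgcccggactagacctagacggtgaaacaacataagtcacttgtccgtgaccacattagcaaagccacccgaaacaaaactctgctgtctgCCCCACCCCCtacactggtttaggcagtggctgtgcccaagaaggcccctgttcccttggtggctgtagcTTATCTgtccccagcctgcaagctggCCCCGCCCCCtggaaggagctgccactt
Itga2b: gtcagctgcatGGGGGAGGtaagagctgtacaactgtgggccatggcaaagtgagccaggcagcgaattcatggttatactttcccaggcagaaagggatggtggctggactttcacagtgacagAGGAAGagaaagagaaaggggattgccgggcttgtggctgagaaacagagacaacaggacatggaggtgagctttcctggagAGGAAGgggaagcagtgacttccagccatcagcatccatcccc
Mmrn1: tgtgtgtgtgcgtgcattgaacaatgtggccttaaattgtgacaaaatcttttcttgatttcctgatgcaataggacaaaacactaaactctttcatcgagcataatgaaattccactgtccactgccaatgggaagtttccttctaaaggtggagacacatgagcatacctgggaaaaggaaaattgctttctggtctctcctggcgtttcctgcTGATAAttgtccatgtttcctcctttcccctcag
RefSeq promoter entries were matched for 7 of the 9 genes. A GATA motif was found in 3 of them, against 16.6% of 32851 promoter stretches of this length. In Klf1 the first base of the match lay at -80 from the start, in Epor at -54 and in Mmrn1 at -34. The KLF motif lay in 4 of the 7, those of Gata1, Epor, Itga2b and F2r, against 45.9% of all stretches. Gata1 had 3 matches and Epor had 4, overlapping matches counted separately. The ETS motif lay in 3 of the 7, those of Gata1, Itga2b and Pf4, against 29.5%. Itga2b had 2 matches, at -125 and -43. Genes of both lineages held each motif, and a match describes letters, not binding.

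Between the array numbers, the 4 erythroid genes lay higher in number 2 within both genotypes, and 4 of the 5 megakaryocyte genes had a lower mean there. All 4 erythroid genes had both arrays numbered 2 above both arrays numbered 1, and Epor rose (0.55 log2 units, 1.47-fold, limma adjusted p = 0.0430). Of the 5 megakaryocyte genes Mmrn1 fell by 2.21 log2 units (4.64-fold, limma adjusted p = 0.00645) and Itga2b lay lower without passing (−0.52), while Vwf lay slightly higher (0.19). Of the 9 genes, 1 was called higher, against 3.81% of all genes, and 1 lower, against 2.93% (6.74% called in all). Both number-2 arrays lay above both number-1 arrays for 5 of the 9 (20.4% of all genes) and below them for 2 (27.2%). The median difference over all genes was −0.02.

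**Figure D1:**
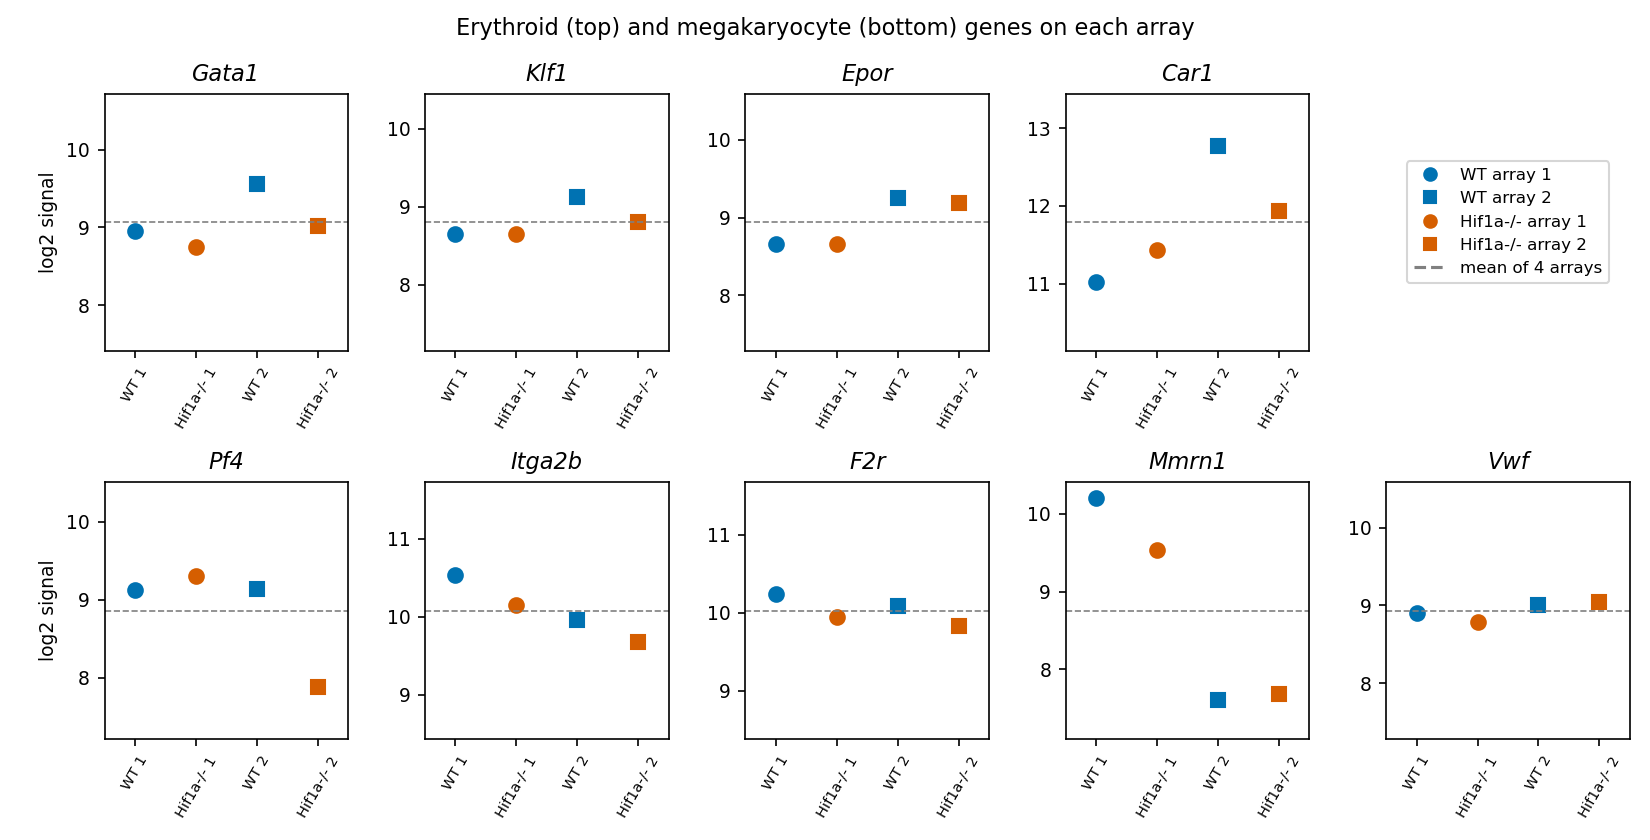
Log2 signal of each gene on the 4 arrays (x axis), erythroid genes in the top row and megakaryocyte genes in the bottom row; circles are arrays numbered 1, squares arrays numbered 2, and the dashed line is the gene's mean over 4 arrays. All panels span the same height, but levels of different genes are not comparable. Mmrn1 drops from 10.19 and 9.53 in number 1 to 7.61 and 7.69 in number 2, and all 4 erythroid genes are higher in number 2.

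Among the erythroid genes, Epor, the erythropoietin receptor, split most evenly by number. Its log2 signal was 8.67 in both number-1 arrays, 9.25 in WT array 2 and 9.18 in Hif1a-/- array 2. The step was thus 0.59 in WT and 0.52 in the Hif1a-/- arrays, and the groups of arrays did not overlap. The difference was 0.55 (SE 0.11, 95% interval 0.28 to 0.82). The call was lost without WT array 1 (limma adjusted p = 0.429), without Hif1a-/- array 1 (0.357), with the dimmest 40% of genes left out (0.0525), with a trended robust prior (0.0526) and with genotype as a block (0.0884), whereas the difference stayed between 0.52 and 0.59 with any array left out.

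Car1, which encodes carbonic anhydrase I, an enzyme of early erythroid cells that speeds the hydration of carbon dioxide, varied most among the erythroid genes. Its signal was 11.03 and 12.77 on WT arrays 1 and 2, against 11.44 and 11.94 in the Hif1a-/- arrays. WT array 2 stood highest, 3.36-fold above WT array 1, while the Hif1a-/- arrays differed by 1.42-fold. The number difference was 1.12 (SE 0.29, 2.18-fold) and missed the threshold (limma adjusted p = 0.0939). The difference was 0.71 without WT array 2 and 1.54 without Hif1a-/- array 2. Either fit leaves 1 array in number 2, whose spread is then not measured.

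Gata1 and its erythroid partner Klf1, a zinc-finger activator of globin and membrane genes, showed smaller steps in the same direction. Gata1 was at 8.95 and 9.56 on WT arrays 1 and 2, and at 8.75 and 9.02 in the Hif1a-/- arrays. Klf1 was at 8.65 and 9.12 in WT and at 8.65 and 8.80 in the Hif1a-/- arrays. For both genes WT array 2 was the highest, and Hif1a-/- array 2 lay just above the number-1 arrays. The differences were 0.44 (SE 0.20) for Gata1 and 0.31 (SE 0.14) for Klf1, each with a limma adjusted p of 0.317. With 1 array left in number 2, the differences were 0.71 and 0.47 without Hif1a-/- array 2. They were 0.17 and 0.15 without WT array 2.

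Among the megakaryocyte genes, Mmrn1, which encodes multimerin 1, a factor V-binding protein of platelet granules, had by far the largest difference of the 9 genes by number. Its signal was 10.19 on WT array 1 and 9.53 on Hif1a-/- array 1, and 7.61 and 7.69 on the WT and Hif1a-/- arrays numbered 2. The mean was 9.86 ± 0.47 (SD, n = 2) in number 1 and 7.65 ± 0.06 (SD, n = 2) in number 2, a difference of −2.21 (SE 0.22, 95% interval −2.77 to −1.66). The drop was 6.01-fold between the WT arrays and 3.59-fold between the Hif1a-/- arrays. The arrays of the 2 numbers were far from overlapping. Both number-2 signals lay below the median of all genes on their arrays (8.54 on each). Whether they lay above background was not tested, so the size of the difference may be a lower bound. The call held in every alternative that kept all 4 arrays, with limma adjusted p between 0.00308 and 0.0107. With an array left out, which leaves 1 array in a number, the difference stayed between −2.55 and −1.88.

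Itga2b encodes the alpha chain of the platelet fibrinogen receptor, the CD41 antigen. Its signal was 10.54 and 9.97 on WT arrays 1 and 2, with 10.15 and 9.67 in the Hif1a-/- arrays. Both number-2 arrays lay below both number-1 arrays, by 0.57 in WT and 0.47 in the Hif1a-/- pair. The difference of −0.52 (SE 0.18) missed the threshold (limma adjusted p = 0.181). With 1 array left in number 2, it was −0.67 without WT array 2 and −0.38 without Hif1a-/- array 2.

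Pf4, the platelet factor 4 chemokine of alpha granules, was set apart by 1 array. Its signal was 9.12 and 9.14 on WT arrays 1 and 2, 9.31 in Hif1a-/- array 1 and 7.88 in Hif1a-/- array 2. The WT arrays were level with each other, and the Hif1a-/- pair differed by 2.70-fold. The number difference was −0.71 (SE 0.39, limma adjusted p = 0.427). With 1 array left in number 2, it was −1.34 without WT array 2 and −0.08 without Hif1a-/- array 2. Pf4 was the 1 gene of the 9 whose number difference went opposite ways in the 2 genotypes, as it did for 40.6% of all genes.

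F2r, the thrombin receptor PAR1, and Vwf, the von Willebrand factor that tethers platelets, differed little by number. F2r was at 10.24 and 10.09 on WT arrays 1 and 2, and at 9.95 and 9.84 in the Hif1a-/- arrays, with a number difference of −0.13 (SE 0.16, 95% interval −0.52 to 0.26). Vwf was at 8.90 and 9.01 in WT and at 8.78 and 9.05 in the Hif1a-/- arrays, with a difference of 0.19 (SE 0.11, 95% interval −0.09 to 0.47). For Vwf the arrays numbered 2 lay above those numbered 1, whereas the other 4 megakaryocyte genes had lower means in number 2. Neither passed (limma adjusted p = 0.784 and 0.480), and the intervals leave out a doubling or halving of either gene.

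**Figure D2:**
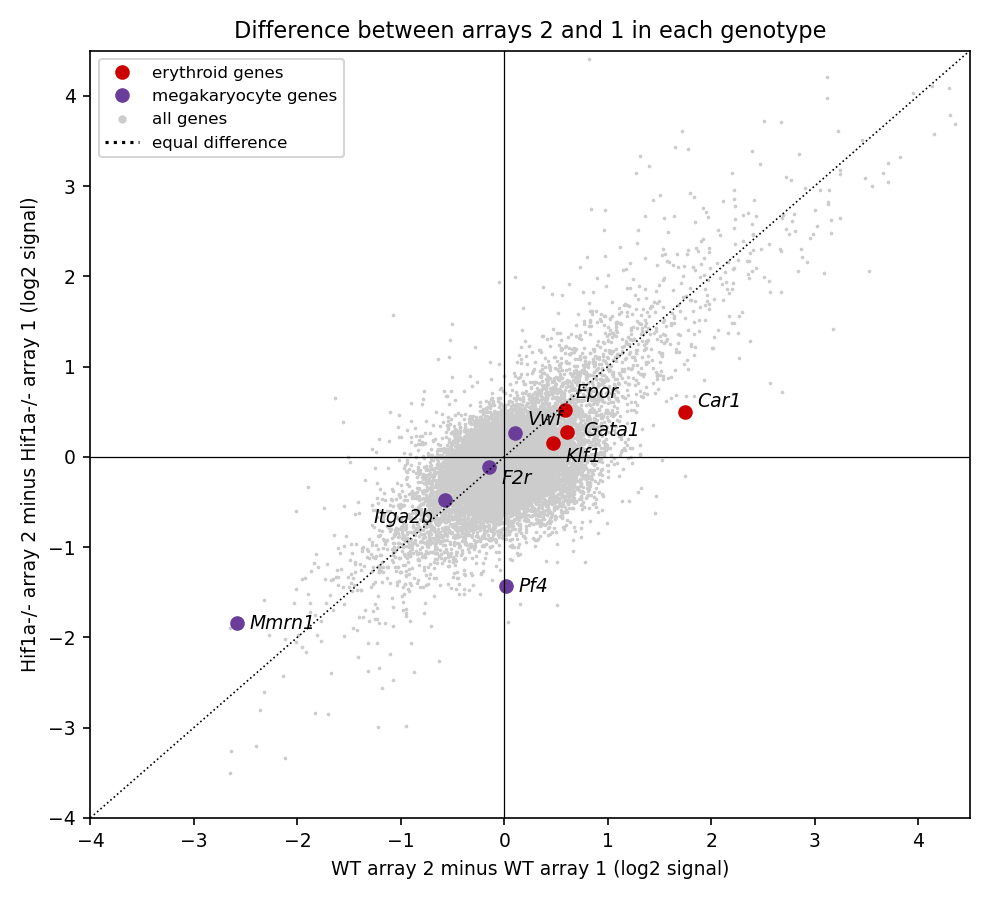
Array 2 minus array 1 in log2 signal, for the WT pair (x axis) and for the Hif1a-/- pair (y axis), for all 19938 genes (grey) with the erythroid genes in red and the megakaryocyte genes in purple; the dotted line marks an equal difference in both genotypes. The 4 erythroid genes fall in the upper right, Mmrn1 at −2.59 and −1.84 in the lower left, and Pf4 lies near 0 in WT and at −1.43 in the Hif1a-/- pair.

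The balance between the lineages was summarised on each array as the mean deviation of the 4 erythroid genes from their 4-array means, minus that of the 5 megakaryocyte genes. It was −0.80 in WT array 1 and −0.49 in Hif1a-/- array 1, against 0.69 in WT array 2 and 0.59 in Hif1a-/- array 2. The arrays numbered 1 thus lay on the megakaryocyte side and those numbered 2 on the erythroid side, with no overlap. The number difference was 1.29 log2 units, 1.49 in WT and 1.08 in the Hif1a-/- pair. The genotype difference was 0.10, made of 0.31 in number 1 and −0.10 in number 2. In WT the erythroid mean went from −0.33 to 0.52, and in the Hif1a-/- pair from −0.28 to 0.08. The megakaryocyte mean went from 0.47 to −0.17 in WT and from 0.21 to −0.51 in the Hif1a-/- pair. Mmrn1 and Car1 carried much of it: the number difference was 0.90 without Mmrn1, 1.11 without Car1 and 0.73 without both, still with no overlap between the numbers. It was 1.34 without Gata1, which serves both lineages. These balances are a description, with no test. In the wider lists described below, 14 of 19 membrane, 14 of 17 haem and 9 of 17 early erythroid genes were higher in number 2. So were 4 of 10 further erythroid factors, 11 of 19 platelet receptor genes and 13 of 22 platelet granule genes. The platelet lists thus did not follow the balance of the 9 genes. Not every erythroid list followed it either: the further erythroid factors had a median of −0.03 and the early erythroid genes had calls both ways. Of the erythropoietin receptor signalling genes 6 of 12 were higher, and of all genes 8886 of 19938.

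**Figure D3:**
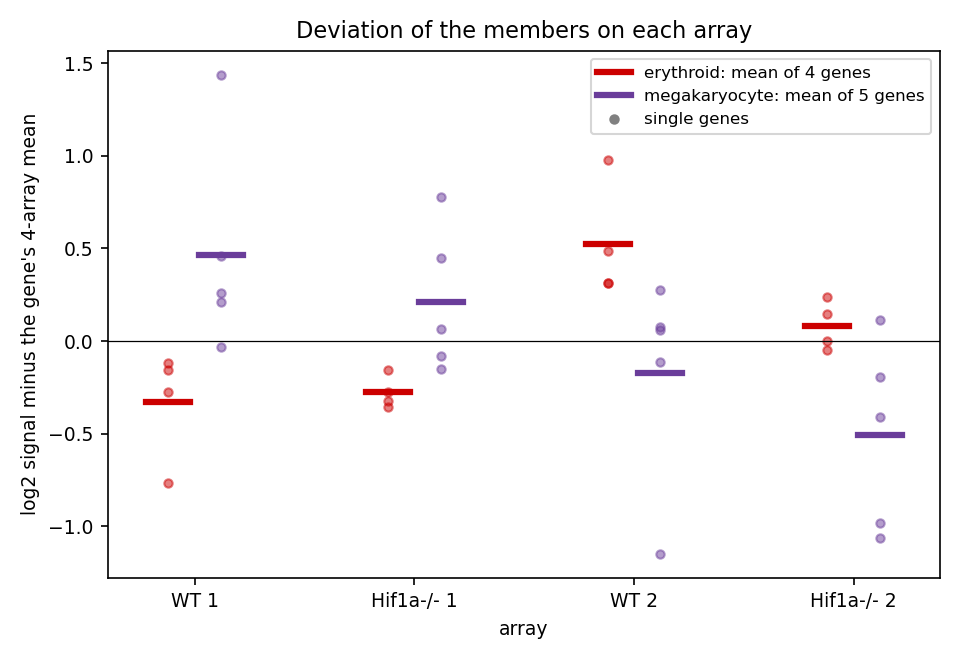
Log2 signal minus the gene's 4-array mean (y axis) for each of the 9 genes on each array (x axis), erythroid genes in red and megakaryocyte genes in purple, with thick bars for the lineage means. The erythroid bar lies below the megakaryocyte bar on both arrays numbered 1 and above it on both arrays numbered 2.

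The other genes of the erythroid programme differed from list to list by number. Counts with an array left out are set against the shares of all genes called at the same setting, which were 1.23% called higher and 0.366% lower without WT array 1, 1.60% and 0.697% without Hif1a-/- array 1, 8.78% and 14.6% without WT array 2, and 13.2% and 9.88% without Hif1a-/- array 2. The list of globin and erythroid membrane genes had 14 of 19 measured members higher in number 2, of which 7 passed (36.8% of the list, against 3.81% of all genes), and 0 passed lower. Rhag, the Rh-associated membrane channel, rose by 2.56 log2 units (SE 0.25), Ermap by 1.40, and Kel, which carries a blood group antigen, by 1.12 (SE 0.11). Rhag was at 6.50 and 6.91 in number 1 and at 9.59 and 8.95 in number 2; whether its number-1 signals lay above background was not tested, so the size of its difference may be a lower bound. Rhd, Ank1 (ankyrin of the red cell skeleton), the water channel gene Aqp1 and Tspo2 rose by 1.02, 0.97, 0.93 and 0.85. Kel, Rhd and Tspo2 were between 7.52 and 7.82 in number 1, and the same limit applies to them. The embryonic globin genes Hbb-y, Hbb-bh1 and Hba-x, which serve here as genes not used by adult marrow, differed by 0.05, 0.15 and −0.04. The adult globins were not analysed here. Without WT array 1 the list had 1 call, without Hif1a-/- array 1 it had 3, and without either array numbered 2 it had 9 higher, with 1 lower without WT array 2.

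Haem synthesis and iron genes were higher in number 2 for 14 of 17, with a median of 0.42 and 4 calls, all higher (23.5% of the list, against 3.81% of all genes). Alas1, the general first enzyme of haem synthesis, rose by 0.86 (SE 0.15), Cpox by 0.61, the mitochondrial glycine carrier gene Slc25a38 by 0.92 (SE 0.11) and the haem-degrading enzyme gene Hmox1 by 1.45. Alas2, the erythroid form of the first enzyme, differed by 0.05 (SE 0.13) at signals of 7.94 to 8.20, which were not tested against background. The mitochondrial iron carrier gene Slc25a37 differed by −0.55 (limma adjusted p = 0.0512), beside −0.50 for the oxidase gene Ppox. Higher calls numbered 0 without WT array 1, 1 without Hif1a-/- array 1, 6 without WT array 2 and 9 without Hif1a-/- array 2, and without either of the last there were also 2 lower calls.

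Early erythroid progenitor genes were split, with 9 of 17 higher and 8 lower, and 3 and 2 calls (17.6% and 11.8% of the list, against 3.81% and 2.93% of all genes). Cd36, a fatty acid transporter of erythroid progenitors, platelets and macrophages, rose by 3.48 (SE 0.24) from 6.73 and 7.42 in number 1, a size open to the same limit as for Rhag, and Atp1b2 rose by 0.78. Car2, the carbonic anhydrase that stem cells and erythroid cells share, fell by 0.86 (limma adjusted p = 0.0485) and Cnrip1 by 1.24. Car1 and Car2 thus went opposite ways by number, with 12.42 and 11.79 for Car2 on WT arrays 1 and 2, against 12.40 and 11.31 in the Hif1a-/- arrays. Without WT array 1 the early progenitor list had 1 call each way, without Hif1a-/- array 1 it had 2 higher and 1 lower, and without WT array 2 and Hif1a-/- array 2 in turn it had 4 and 8 higher and 4 lower. Among all 15 carbonic anhydrases other than Car1, 0 passed higher (against 3.81% of all genes) and 2 lower (13.3%, against 2.93%). These were Car2 and Car5b (−0.58), and neither passed without WT array 1 or without Hif1a-/- array 1.

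Downstream of the erythropoietin receptor, 6 of 12 signalling genes were higher and 6 lower in number 2, with a median of 0.01. Jak2, the kinase bound to the receptor, rose by 1.07 (SE 0.14) and the adaptor gene Gab1 fell by 1.31 (SE 0.11). Stat5a and Stat5b, the transcription factors that the receptor activates, differed by −0.27 and −0.58, and the feedback inhibitor gene Socs2 by 0.75; none of these 3 passed. Jak2 did not pass without WT array 1 or Hif1a-/- array 1, where the list had 0 higher calls and 1 lower; without WT array 2 it had 2 and 4, and without Hif1a-/- array 2 it had 4 and 2.

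Transcription factors listed here as shared by both lineages lay lower in number 2, opposite to Gata1 and Klf1. The list is not particular to these lineages, and Meis1 is also among the stem cell markers. Of 19 measured, 18 were lower and 16 had both number-2 arrays below both number-1 arrays (84.2%, against 27.2% of all genes), with a median of −0.52 (−0.62 in WT, −0.56 in the Hif1a-/- pair). Meis1, a homeobox factor of stem cells and megakaryocytes, fell by 2.28 (SE 0.22), the ETS factor gene Erg by 1.45 (SE 0.11), Mef2c by 1.35, Etv6 by 0.77, Runx3 by 0.67 and Ldb1 by 0.59. These 6 were the only calls of the list, 31.6% of it against 2.93% of all genes. Gata2 (−0.42), Tal1 (−0.52), Zfpm1, which encodes FOG1 (−0.56), and Gfi1b (−0.26) did not pass. The calls numbered 2 without either array numbered 1, 16 without WT array 2 and 11 without Hif1a-/- array 2. Among 10 further erythroid factors Klf2 rose by 0.78, while the globin-switching repressor gene Bcl11a fell by 0.86 and Foxo3 by 0.70, and none of the 10 passed without WT array 1 or without Hif1a-/- array 1. For the GATA factor genes Gata3 (0.11, SE 0.16), Gata4, Gata5 and Gata6, limma made 0 calls and found 0 unadjusted p-values under 0.05.

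Platelet receptor genes went both ways by number, with 11 of 19 higher and 8 lower and 3 calls each (15.8% of the list each way, against 3.81% and 2.93% of all genes). Pear1 fell by 1.57 (SE 0.17), the ATP receptor gene P2rx1 by 1.02 and the thromboxane receptor gene Tbxa2r by 0.92 (SE 0.11), while Cd36, Cd9 (1.46) and Fcer1g (1.05) rose. These last genes are widely transcribed in myeloid cells as well. Gp9, a subunit of the receptor for von Willebrand factor, was at 9.86 and 9.40 in WT and at 10.08 and 8.73 in the Hif1a-/- arrays, a difference of −0.90 that did not pass (limma adjusted p = 0.0908), with its lowest value on the array where Pf4 was lowest. Itgb3, the partner chain of Itga2b, differed by 0.13 (SE 0.15). Without WT array 1 the calls were 2 higher and 1 lower, and without Hif1a-/- array 1 they were 3 and 1, against 4 and 5 without WT array 2 and 6 and 6 without Hif1a-/- array 2.

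Platelet granule and cytoskeleton genes gave 3 calls among 22, all higher (13.6%, against 3.81% of all genes). Sparc rose by 0.73, Actn1 by 1.44 and Tubb2a by 1.00, whereas the platelet tubulin gene Tubb1 (−0.10) and the granule chemokine gene Ppbp (−0.26) did not pass. Ppbp, like Pf4, had its lowest signal (7.49) on Hif1a-/- array 2. The list had 0 calls without either array numbered 1, 8 higher and 4 lower without WT array 2, and 7 and 2 without Hif1a-/- array 2. The 4 lower calls without WT array 2 were 18.2% of the list, near the 14.6% of all genes. Among the relatives of F2r, F2rl2 rose by 1.13 (SE 0.12; not called without WT array 1) and F2rl3, the PAR4 receptor gene, differed by −1.03 (limma adjusted p = 0.0577). Of the relatives of Mmrn1, Emilin2 rose by 1.70 and Mmrn2 differed by 0.20 (limma adjusted p = 0.467).

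**Figure D4:**
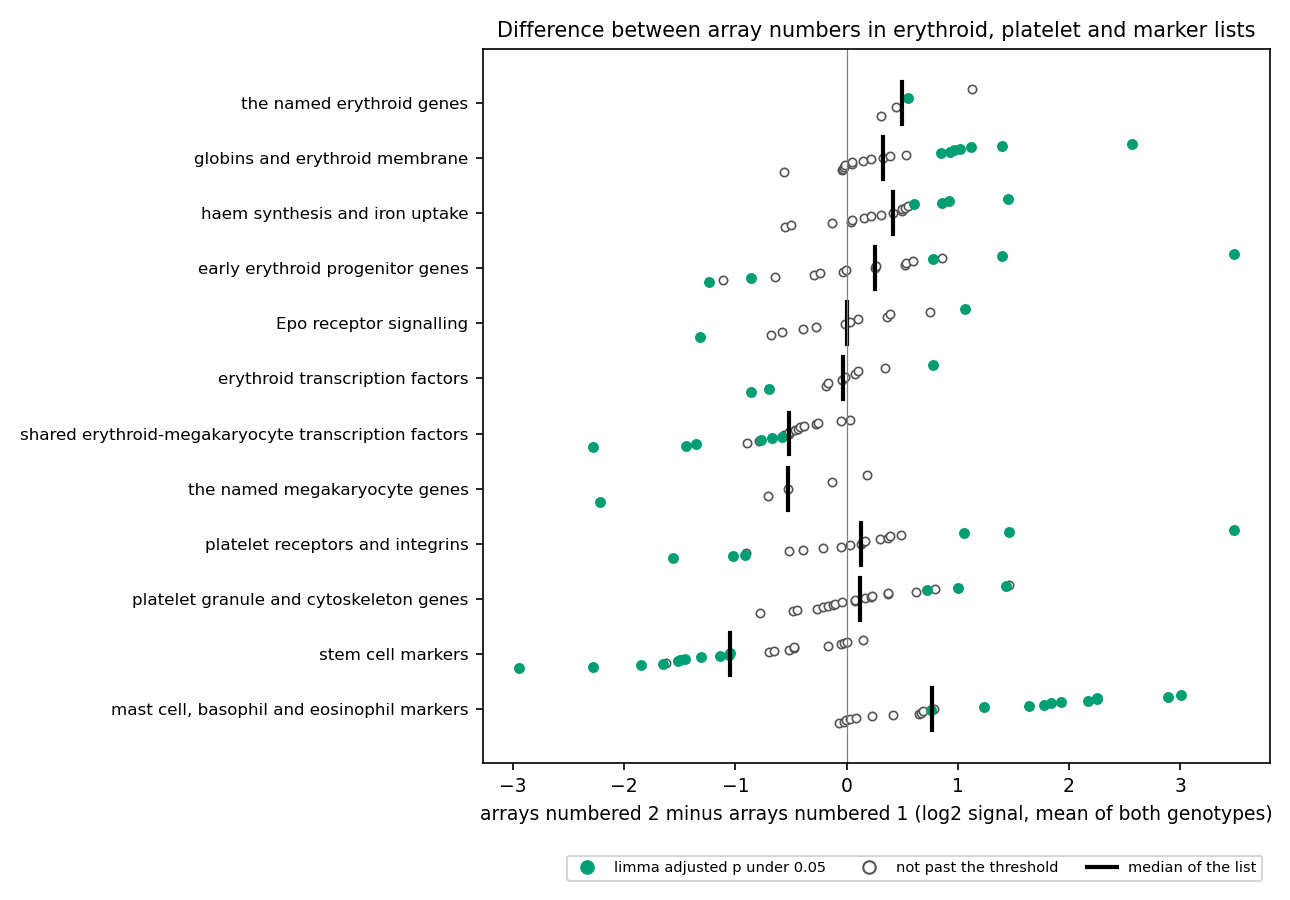
Number difference per gene (x axis, log2 signal of arrays numbered 2 minus arrays numbered 1) for 12 gene lists (y axis), filled green where limma's adjusted p was under 0.05 and open otherwise, with the list median as a black bar. Membrane and haem genes lie mostly right of 0, shared transcription factors and stem cell markers left of 0, and mast cell, basophil and eosinophil markers right of 0. Neutrophil and monocyte markers, not drawn, were also mostly higher in number 2.

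Markers of other cells also separated by array number, beside 3.81% of all genes called higher and 2.93% lower. Of the mast cell, basophil and eosinophil list, 11 of 22 passed higher in number 2, among them Hdc (1.77), the histamine-making enzyme gene, and Epx (2.25), and 0 lower. Its summed linear signal was 9723 and 11432 on the number-1 arrays and 29893 and 29501 on the number-2 arrays. Neutrophil markers passed higher for 13 of 19 and monocyte, macrophage and dendritic markers for 14 of 18. Neutrophil sums were 44305 and 36376 in number 1 and 82595 and 110175 in number 2. Sums of the monocyte list were 18975 and 22035, against 63576 and 75484. Stem cell markers passed lower for 11 of 22, with summed signals of 46842 and 42502 in number 1 and 27876 and 18495 in number 2. With an array left out, calls ranged from 8 to 17 for the mast cell list, 4 to 17 for neutrophil markers, 9 to 16 for monocyte markers and 4 to 17 for stem cell markers, lowest without an array numbered 1. Endothelial markers were split, with 10 of 21 higher and 11 lower in number 2 (median −0.04). Their sum, which the brightest probe sets dominate, was 15390 and 13954 in number 1 and 9510 and 8995 in number 2. No marker is at 0 on this scale. The part of these cells in the values of Gata1, Epor, Car1, Itga2b or Mmrn1 was not tested, and in a bulk sample fewer cells of a type and less RNA per cell cannot be told apart.

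Between the genotypes, no difference in any of the 9 genes passed. All 9 had a lower mean in the Hif1a-/- arrays, by 0.04 to 0.54 log2 units, but only F2r had both Hif1a-/- arrays below both WT arrays, a state found in 8.33% of all genes. limma called 0 of the 9 and 0 of all 19938 genes (0% called), with 0 of the 9 and 145 of all genes (0.727%) at an unadjusted p under 0.05. The median of the 9 was −0.28 (−0.12 in number 1, −0.29 in number 2) beside 0.00 over all genes. Between the numbers 6 of the 9 changed sign, as 51.6% of all genes did, though Epor and Klf1 did so from 0.0005 and 0.002 in number 1.

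F2r was 10.17 ± 0.11 (SD, n = 2) in WT and 9.89 ± 0.08 (SD, n = 2) in the Hif1a-/- arrays. The difference was −0.28 (SE 0.12, 95% interval −0.62 to 0.07, limma adjusted p = 0.9998), with −0.29 in number 1 and −0.26 in number 2. Itga2b also lay lower within both numbers, by 0.39 and 0.29, as did Gata1, by 0.21 and 0.54, but their arrays overlapped between the genotypes. The differences were −0.34 (SE 0.28) for Itga2b and −0.37 (SE 0.26) for Gata1.

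Car1 and Pf4 changed sign between the numbers by the widest margins among the erythroid and megakaryocyte genes. Car1 was 0.41 higher in the Hif1a-/- array of number 1 and differed by −0.83 in number 2, for a mean of −0.21 (SE 0.65). Pf4 was 0.19 higher in number 1 and differed by −1.26 in number 2, for a mean of −0.54 (SE 0.52). Mmrn1 differed by −0.66 and 0.08 (mean −0.29, SE 1.13). With 1 array per genotype and number, these differences within numbers have no test. Klf1 (−0.16, SE 0.20), Epor (−0.04, SE 0.30) and Vwf (−0.04, SE 0.15) were near 0, and their 95% intervals were −0.73 to 0.41, −0.86 to 0.79 and −0.45 to 0.37.

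**Figure D5:**
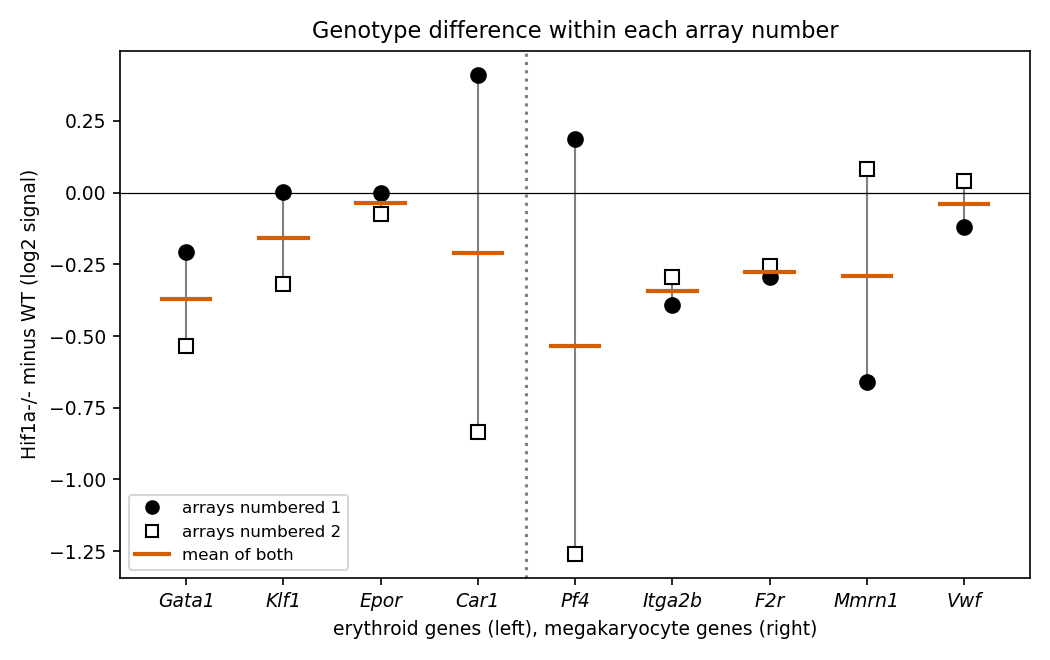
Hif1a-/- minus WT in log2 signal (y axis) for each gene (x axis), between the arrays numbered 1 (filled circles) and between the arrays numbered 2 (open squares), with the mean of both as an orange bar. F2r, Itga2b and Gata1 lie below 0 in both numbers, whereas Car1 and Pf4 lie above 0 in number 1 and at −0.83 and −1.26 in number 2.

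Between the genotypes limma called 0 genes of the other erythroid and platelet lists, of which Xk, Bcl2l1 and E2f2 had an unadjusted p under 0.05. Shared transcription factors were lower for 16 of 19, with a median of −0.15 beside 0.00 over all genes, among them Gata2 (−0.21, SE 0.24) and Nfe2 (−0.35, SE 0.41). Globin and membrane genes were higher for 12 of 19 (median 0.04), with Xk, a red cell membrane protein gene, at −0.51 (SE 0.15) and the embryonic globin gene Hbb-y at 0.24 (SE 0.12). Haem genes had 7 of 17 higher (median −0.05), platelet receptors 7 of 19 (−0.07) and platelet granule genes 10 of 22 (−0.02). Among the erythroid factors, E2f2, a cell cycle regulator of late erythroblasts, was at 9.27 and 9.44 on the WT arrays and at 9.95 and 9.99 on the Hif1a-/- arrays, a difference of 0.62 (SE 0.12).

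Downstream of the erythropoietin receptor 8 of 12 genes had a lower Hif1a-/- mean (median −0.10). The survival gene Bcl2l1 (0.33, SE 0.11) and Socs2 (0.33, SE 0.41) lay above 0, and Stat5a (−0.23, SE 0.19) and Stat5b (−0.35, SE 0.32) below it. Of the haem enzyme genes, Urod and Alad differed by −0.27 (SE 0.17) and −0.36 (SE 0.26). Early erythroid progenitor genes were lower for 12 of 17 (median −0.09), with Rgcc at −0.46 (SE 0.35) and Ctse at 0.68 (SE 0.50). Among platelet genes, Itgb3, Gp5 and the caveola gene Cavin2 lay at −0.24, −0.21 and −0.25, each with an SE of 0.13 to 0.16, and Vps33b, needed to build alpha granules, at 0.36 (SE 0.41). Of the markers of other cells, stem cell markers had a lower Hif1a-/- mean for 19 of 22 (median −0.24), mast cell, basophil and eosinophil markers for 13 of 22 (−0.08) and endothelial markers for 12 of 21 (−0.05). Means were higher for 15 of 18 monocyte, macrophage and dendritic markers (median 0.22), 14 of 16 T and NK cell markers (0.21) and 13 of 19 neutrophil markers (0.34). The neutrophil median changed sign between the numbers, from −0.22 in number 1 to 0.91 in number 2. For T and NK cell markers it was 0.01 and 0.36, and for the monocyte list 0.21 and 0.34. B cell markers had a higher Hif1a-/- mean for 15 of 16, with summed linear signals of 16601 and 17511 on the WT arrays against 30175 and 20603 on the Hif1a-/- arrays. The B cell median was 0.77, with 0.90 in number 1 and 0.56 in number 2. Both Hif1a-/- arrays lay above both WT arrays for 11 of the 16 (16.1% of all genes) and below them for 1 (8.33%). Of these markers limma called 0. The part of these cells in the 9 of 9 lower means and in the shared transcription factors was not tested.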

How the data were processed

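Each of the 4 samples was hybridised to 1 Affymetrix array that reads whole transcripts. The deposited values are log2 signals; Expression Console 1.1 and RMA are named in the submitters' processing notes, and the range (3.08 to 14.88) gave the log base. RMA usually makes arrays alike in distribution, which hides a change shared by all genes; here array medians ran from 8.19 to 8.35. The arrays' genome build was not given in the sources used here. Of 35556 probe sets 21789 had 1 gene symbol, 1621 several and 12146 were not listed; the one with the highest mean was kept per gene (19938 genes, no filter on dim signals). The table held 0 columns of other samples. Differences by genotype and by array number were fitted with limma 3.58.1 in R 4.3.3 (eBayes, two-sided, no covariates) over all genes, adjusted by Benjamini-Hochberg at 0.05. The genotype fit was also run on simulated arrays with independent noise and no number difference, so the number fit was not checked in that way. The number of arrays limits precision: the median SE was 0.15 (genotype) and 0.13 (number). The 9 genes and the lists were chosen with earlier results of these data known. Per list, genes were named from the 2 lowest p-values in either direction and contrast, and further ones after their values were seen. Alternatives changed the normalization, the dim-gene filter, probe averaging, the prior, blocks and the arrays used. Motifs were sought in RefSeq stretches cut to the 250 bases before the start.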

Additional observations from a re-analysis of the deposited data

Results flagged for a closer look

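For 6 of the 9 genes the differences between single pairs of arrays had opposite signs. The number difference in the Hif1a-/- pair minus that in the WT pair equals the genotype difference in number 2 minus that in number 1, and was −1.45 for Pf4, where the number difference itself changed sign, −1.25 for Car1, 0.75 for Mmrn1, −0.32 for Klf1, 0.16 for Vwf and −0.074 for Epor. In all 6 the genotype difference changed sign between the numbers. For Epor and Klf1 it was 0.0005 and 0.002 in number 1, so those changes of sign start from almost no difference. For Vwf and Mmrn1 it was 0.04 and 0.08 in number 2. The number difference of Pf4 was 0.016 in the WT pair, so its change of sign also starts from almost no difference. With 1 array for each genotype and number these differences were not tested. Among all genes the genotype difference changed sign in 51.6% and the number difference in 40.6%.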

How the results depend on the processing

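The number of genes called by array number was 1344, and with an array left out 319 (without WT 1), 458 (Hif1a-/- 1), 4602 (Hif1a-/- 2) and 4661 (WT 2), and the genotype called 0 genes throughout, with 57 to 622 at an unadjusted p under 0.05. Of 99 alternative values of the 9 genes by number, 87 kept direction and call, 6 passed, 5 lost the call and 1 turned; by genotype 87 kept both and 12 turned. Those by number that passed came from fits that leave 1 array in number 2, whose spread is then not measured. Under quantile normalization the genotype difference turned for Epor (0.023) and Vwf (0.0052). With an array left out it ranged from −0.39 to 0.079 for Klf1, −0.33 to 0.26 for Epor, −1.08 to 0.66 for Car1, −1.25 to 0.18 for Pf4, −1.58 to 1.00 for Mmrn1 and −0.17 to 0.093 for Vwf, and F2r by number from −0.28 to 0.016; the cause was not tested. The balance by number, 1.29, was 0.90 without Mmrn1, 1.11 without Car1 and 0.73 without both, and 1.13 to 1.44 with an array left out; by genotype, 0.10, it ranged from −0.64 to 0.85. These omissions, and the list counts with an array left out, were chosen after seeing the data. With the replicate number as a block (replicate block) the genotype still called 0 genes (478 at an unadjusted p under 0.05), and the block changed no other call; Itga2b had an unadjusted p of 0.0443 in limma (adjusted 0.980). The deviations of same-numbered arrays from their genotype means correlated at 0.67 over genes, but the labels do not say that the numbers pair samples.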

Other observations

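Among other cytokine receptors measured, Csf2rb2 (1.51), Csf2rb (1.22) and Lifr (2.09), which belong like Epor to the class I family, rose in number 2 in limma. Csf3r (−0.73), Il7r (−0.43), Il3ra (0.18) and Ghr (−0.09) of that family did not pass. Flt3, a receptor tyrosine kinase like Kit, fell by 0.84. Of 21 endothelial markers, 1 passed higher (Cdh5, 0.71), or 4.76%, near the 3.81% of all genes. Another 5 passed lower (23.8%, against 2.93%), among them Emcn (−2.81), Eng (−1.52) and Tie1 (−1.45), which stem cells also transcribe. Without an array the endothelial calls were 0 to 6 higher and 2 to 7 lower, fewest without WT array 1.

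For the 3 genes that ranged over at least 1 log2 unit, the genes with the closest centred values over the 4 arrays were sought among genes above the median signal. Nearest to Mmrn1 were Tet1 (root mean square difference 0.18), Cmah (0.19) and Sstr2 (0.22). Nearest to Car1 were Sdf2l1 (0.12), Ap1s2 (0.13) and Ccl17 (0.13), and nearest to Pf4 were Zfp280c (0.08), Rabl2 (0.10) and Mmachc (0.11). With 4 arrays such likeness is only a description.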
